A study of Homo sapiens with 8 samples.

Results

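Carboxypeptidase E (CPE) and the main genes that guard cells against apoptosis were followed through RNA-seq of HEK293 cells, a human embryonic kidney line, with and without serotonin. The genes were taken by symbol: CPE, the BCL2 family members BCL2, BCL2L1, BCL2L2 and MCL1, the inhibitor of apoptosis (IAP) genes BIRC2, XIAP, BIRC5 and BIRC6, and CFLAR. They are 10 of the 58440 genes in the count table. All 10 were read deeply enough to be tested, among 17144 genes that passed the filter on low counts. On hg38 with GENCODE release 28, CPE lies on the plus strand at chr4:165361194-165498320 and BCL2 on the minus strand at chr18:63123346-63320128. BCL2L2 (plus strand, chr14:23298790-23311759), BIRC6 (plus strand, chr2:32357028-32618899) and XIAP (plus strand, chrX:123859724-123913979) are the other genes on which the values below turn. Counts are over all annotated exons of a gene, untranslated parts included. No member passed edgeR's test in any of 6 comparisons (DESeq2 called 1 member in 1 of them, and limma voom 1 in another), and the intervals given with each value show what size of change these libraries leave possible.

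CPE trims basic residues from the ends of peptide hormone intermediates in secretory granules. It is also secreted as a trophic factor, and has been reported to act through the serotonin receptor HTR1E on ERK and CREB signalling and on BCL2. BCL2, BCL2L1 (BCL-xL), BCL2L2 (BCL-w) and MCL1 hold BAX and BAK in check at the outer mitochondrial membrane, which keeps cytochrome c inside. XIAP blocks caspases directly, BIRC2 and BIRC6 attach ubiquitin to death pathway proteins, and BIRC5 (survivin) serves mainly in cell division. CFLAR (c-FLIP) keeps caspase 8 from being activated at death receptors.

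The series has 8 samples in 4 groups of 2. HEK293 cells stably overexpressing HTR1E (genotype HTR1E-stable) and control HEK293 cells were each collected without ligand or after 1 µM serotonin for 1 h. All cells were starved of serum for 3 h first. The labels do not say which promoter drives HTR1E, whether the stable line is 1 clone, or whether the 2 samples of a group came from separate cultures, so p-values measure only the spread between these samples, which may be technical. In the table, a library's name holds a treatment word, the letter A or B, and in some names a trailing R. "Control" in these names means no ligand, not the control line. The labels do not tie A or B to a cell line, so the libraries are called A libraries and B libraries below.

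HTR1E itself stood at 1353 to 1836 read pairs in the 4 A libraries, or 175 to 225 CPM (counts scaled to a common library total), and at 0 to 3 read pairs in the 4 B libraries. No library was placed in a cell line by these counts. HEK293 markers were present (VIM at 299 to 455 CPM, CDH2 at 52.9 to 195 CPM, PAX2 at 1.81 to 21.5 CPM), although LHX1 and NEFM were low, at most 6.99 and 5.2 CPM. Markers of other cell types were at or near 0, with PTPRC (blood) at 0 read pairs in 8 of 8 libraries and ALB, COL1A2, DCN and PECAM1 at no more than 8.

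Library totals ran from 2604885 to 9072278 counted read pairs. Control_B and Serotonin_BR stood apart. Mitochondrial genes took 54.4% of the counts of Control_B, the shallowest library, and 36.3% of those of Serotonin_BR, against 17.9% to 24.6% in the other 6. Libraries sharing letter and treatment differed by a median of 0.13 (A, no ligand), 0.29 (A, serotonin), 0.55 (B, no ligand) and 0.34 (B, serotonin) in log2 CPM, over 10267 genes with a mean of at least 10 CPM. Differences that rest on the B libraries are therefore given with and without these 2 libraries, which leaves 1 B library per treatment, assumed to vary like the others. Where a fit keeps 1 library of a set, its p-values and intervals hold no spread within that set. Without ligand, B then rests on Control_BR, which had the lowest of limma voom's sample weights, 0.308. Control_B had 0.629, Serotonin_B 0.731 and Serotonin_BR 0.75, all below those of the A libraries.

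The CREB-binding element TGACGTCA and its shorter core TGACG were searched on both strands of RefSeq promoter windows (GRCh38.p14, 300 bases around a start), because CREB lies on the reported path from CPE to BCL2. The core lies inside the full element. Windows were found for 7 members and not for BCL2L2, MCL1 or BIRC5. The starts are those of RefSeq and can lie inside the gene spans given above. This holds for the CPE window (chr4:165378758-165379057), the BCL2 window and the XIAP window used below. The core was in 8 of the 15 windows of these members and in 24.6% of all 35116 windows. The windows of BIRC2 overlap each other, as do those of BIRC6, so the same matches count for both windows of a gene. Whether the members differ from all windows was not tested. It was in at least 1 window of 6 members and absent from the 4 windows of CFLAR. The full element was in both windows of BIRC2, as 1 site where they overlap, and in 1.85% of all windows. At least 1 stretch is shown for each of the 6 genes, with 1 match per stretch in capitals (CGTCA is the core read on the opposite strand). The BIRC2 stretch also holds a core left in lower case, 6 bases downstream of 1 of its starts. A further XIAP match, 7 bases downstream of the start used below, is not shown. A match is a description of letters and shows no binding.

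CPE, plus strand, chr4:165378775-165378804, 221 bases upstream of the start: ttccatacgcagTGACGtgggtgggtcatg

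CPE, plus strand, chr4:165378876-165378905, 120 bases upstream: ccatttggctgtTGACGtggttccgagcca

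BCL2, minus strand, chr18:63319977-63320006, 225 bases upstream: cctgccggcggcCGTCAgcgctcggagcgg

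BCL2L1, minus strand, chr20:31724147-31724176, 201 bases upstream: ctatatataaacTGACGgacggatgaaata

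BIRC2, plus strand, chr11:102347196-102347225, 7 and 167 bases upstream of its 2 starts: gccgggcgcgcTGACGTCAtcgtgcgtcag

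XIAP, plus strand, chrX:123860015-123860044, 26 bases upstream of 1 of its 3 starts: gggctgggagacTGACGgaccgcgcccggt

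BIRC6, plus strand, chr2:32357037-32357066, 167 bases upstream of 1 of its 2 starts and 26 downstream of the other: ctccccctctccCGTCAgcctccctccgag

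Levels of different genes were compared per length, as RPKM, the CPM divided by the exonic length in kilobases, on the scale set by TMM normalization, which adjusts for library composition. CPE was the most abundant of the 10, at 46.9 to 61.4 RPKM in the A libraries and 15.4 to 46.6 in the B libraries. MCL1 followed at 20.1 to 25.9 RPKM in A and 17 to 32.3 in B, with BIRC5 next at 14.9 to 22 in A and 11.1 to 25.2 in B. CPE held rank 1 in 6 of 8 libraries and rank 3 in Control_B and Serotonin_BR. The ranges of CPE and MCL1 did not overlap in the A libraries, whereas those of MCL1 and BIRC5 did.

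A middle group of 5 genes followed. In the A libraries BIRC6 stood at 8.35 to 13.6 RPKM, BCL2L2 at 8.46 to 9.81, BIRC2 at 6.13 to 8.52, BCL2L1 at 5.77 to 6.93 and XIAP at 5.28 to 6.97. The ranges of neighbours in this order overlapped, while those of BIRC6 and BCL2L2 lay above those of BCL2L1 and XIAP. Within each A library BIRC6 and BCL2L2 held ranks 4 and 5 in either order, and BIRC2 rank 6. CFLAR (1.33 to 1.83 RPKM in A, 1.5 to 2.22 in B) held rank 9 and BCL2 (0.66 to 0.806 in A, 0.781 to 1.66 in B) rank 10 in 8 of 8 libraries. BCL2 rested on only 34 to 117 read pairs per library.

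**Figure D1:**
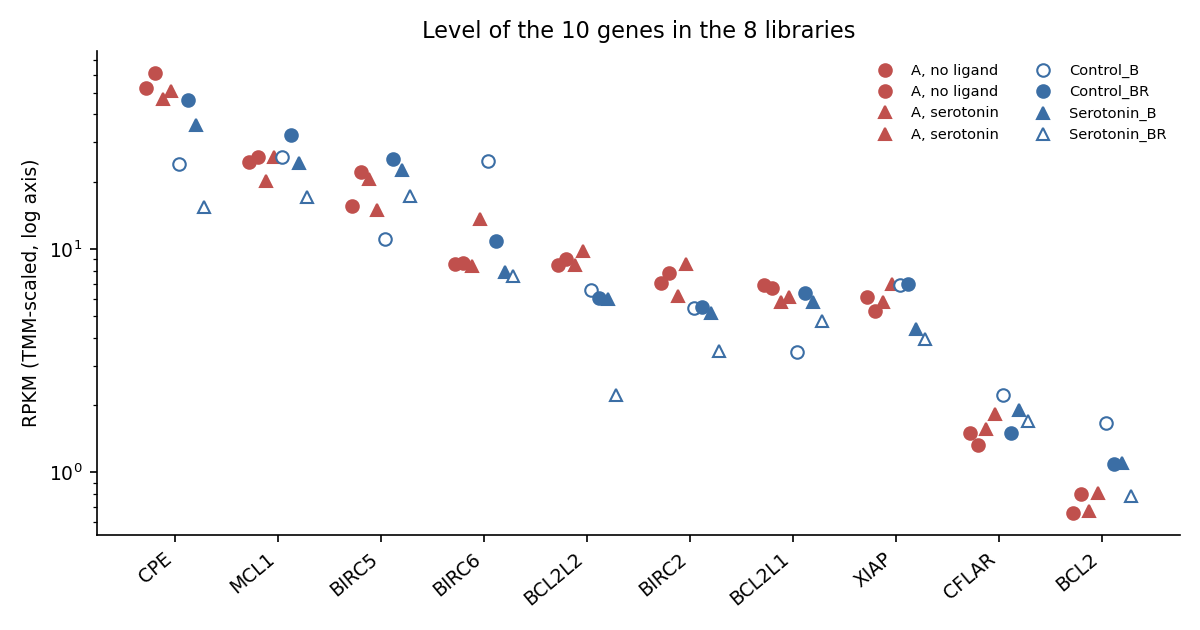
Level of each gene in the 8 libraries, in RPKM on a log axis, with the genes in order of their mean in the A libraries. Red marks are A libraries and blue marks B libraries, circles are no ligand and triangles serotonin, and the open marks are Control_B and Serotonin_BR. CPE lies highest in 6 libraries and BCL2 lowest in 8.

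The first question was whether 1 h of serotonin changed these genes. Averaged over both letters, no member passed edgeR's quasi-likelihood test (adjusted p under 0.05, Benjamini-Hochberg over all genes tested), and 0.00583% of all genes did, which is 1 gene. Member differences, serotonin minus no ligand, ran from -0.43 (BIRC6) to 0.12 (CFLAR) in log2, with a median of -0.25 against 0 over all genes tested. Without the 2 libraries that stood apart they ran from -0.31 (CPE) to 0.30 (CFLAR) with a median of -0.10, and BIRC6 was at -0.07. An unadjusted p under 0.05 was reached by 0 members, beside 11.1% of all genes tested, and DESeq2 and limma voom called 0. A difference in transcript level in such bulk samples could come from fewer expressing cells or from less RNA per cell, which cannot be told apart here.

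In the A libraries, CPE stood at 156 and 182 CPM without ligand and at 139 and 151 CPM with serotonin. All values with serotonin were below those without, by a log2 difference of -0.22 (SE 0.41, 95% interval -1.13 to 0.69, edgeR adjusted p = 1). In the B libraries CPE stood at 70.6 (Control_B) and 138 CPM without ligand, and at 106 and 45.4 (Serotonin_BR) CPM with serotonin. These B ranges overlapped, and the log2 difference was -0.47 (SE 0.42, interval -1.39 to 0.45, edgeR adjusted p = 0.489), or -0.39 (interval -0.96 to 0.18) without the 2 libraries that stood apart. It ran from -1.2 without Serotonin_B to 0.14 without Control_BR, and was 0.02 without Serotonin_BR.

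BCL2, the reported target of CPE, stood at 7.77 and 9.42 CPM without ligand and at 7.9 and 9.48 CPM with serotonin in the A libraries. Those pairs of values nearly coincided, with a log2 difference of 0.01 (SE 0.33, interval -0.72 to 0.75). Its B values were 19.5 (Control_B) and 12.8 CPM without ligand, and at 12.9 and 9.18 (Serotonin_BR) CPM with serotonin. The ranges overlapped by a narrow margin. The B difference of -0.49 (SE 0.34, edgeR adjusted p = 0.374) became 0 (SE 0.36) without the 2 libraries.

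BCL2L1, BCL2L2 and MCL1 did not pass the test in the A libraries either. BCL2L1 stood at 23 and 22.3 CPM without ligand and at 19.1 and 20.1 CPM with serotonin, a log2 difference of -0.20 (SE 0.29) although the values did not overlap. BCL2L2 stood at 35.6 and 37.9, then 35.4 and 41.1 CPM, and its ranges overlapped. MCL1, whose mRNA and protein turn over fast, stood at 107 and 113 CPM without ligand and at 87.7 and 113 CPM with serotonin, a log2 difference of -0.13 (SE 0.30).

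In the B libraries the BCL2 family values were spread more widely. MCL1 stood at 113 (Control_B) and 141 CPM without ligand, and at 106 and 74.1 (Serotonin_BR) CPM with serotonin, so both serotonin values were lower. Its log2 difference was -0.50 (SE 0.30, edgeR adjusted p = 0.298), and -0.43 (interval -1 to 0.14) without the 2 libraries. BCL2L2 stood at 27.6 and 25.2 CPM without ligand, and at 25.1 and 9.35 (Serotonin_BR) CPM with serotonin. Of these 4 values only that of Serotonin_BR was low. The difference of -0.59 (SE 0.39, edgeR adjusted p = 0.343) was -0.05 without Serotonin_BR, -0.02 without both libraries, and -1.47 without Serotonin_B (adjusted p = 0.039). BCL2L1 stood at 11.5 (Control_B) and 21 CPM, then 19.1 and 15.7 CPM, and its ranges overlapped. Its difference was 0.03 (SE 0.31), or -0.14 without the 2 libraries.

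Among the IAP genes, BIRC6, a very large ubiquitin ligase, varied most. In the A libraries it stood at 152 and 153 CPM without ligand and at 148 and 240 CPM with serotonin. The B values were 440 (Control_B) and 192 CPM without ligand, and at 139 and 134 CPM with serotonin. The B ranges did not overlap, with Control_B far above the rest. The B difference was -1.20 in log2 (SE 0.40, interval -2.09 to -0.32, unadjusted p = 0.0123, edgeR adjusted p = 0.106). DESeq2 gave -1.21 with an adjusted p of 0.0356. Without Control_BR it was -1.65 (adjusted p = 0.00181), without Control_B -0.49 (adjusted p = 0.385), and without both libraries that stood apart -0.48 (interval -1.08 to 0.13, adjusted p = 0.534).

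XIAP stood at 55.1 and 47.7 CPM without ligand and at 52.1 and 62.9 CPM with serotonin in the A libraries, with overlapping ranges. In the B libraries it stood at 62.6 and 62.7 CPM without ligand and at 39.7 and 35.7 CPM with serotonin. Both B serotonin libraries lay below every other library. The B difference was -0.73 (SE 0.26, interval -1.29 to -0.17, unadjusted p = 0.0154, edgeR adjusted p = 0.115), a level 1.66-fold lower. It was -0.67 (interval -1.25 to -0.09, adjusted p = 0.317) without the 2 libraries and stayed between -0.79 and -0.65 under 15 alternatives, called in 0 of them.

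BIRC2 stood at 31.9 and 35.5 CPM without ligand and at 27.8 and 38.6 CPM with serotonin in the A libraries. Its B values were 24.7 and 24.8, then 23.5 and 15.9 (Serotonin_BR) CPM, a difference of -0.32 (SE 0.29). That difference was -0.09 without the 2 libraries. BIRC5, a gene of dividing cells, stood at 59.6 and 83.9, then 78.4 and 56.9 CPM in the A libraries. Its B values were 42.5 (Control_B) and 96.1, then 86.3 and 65.5 CPM. Its ranges overlapped in both sets, and the B difference was 0.10 (SE 0.38), or -0.17 without the 2 libraries.

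CFLAR stood at 33.8 and 29.9 CPM without ligand and at 35.2 and 41.3 CPM with serotonin in the A libraries. Both serotonin values were higher, by 0.26 in log2 (SE 0.27, interval -0.33 to 0.85, edgeR adjusted p = 1). In the B libraries it stood at 49.9 (Control_B) and 33.8, then 43.1 and 38.2 CPM. The B difference was -0.01 (SE 0.28), or 0.34 without the 2 libraries.

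Within the A libraries, 0% of all genes passed (0 by edgeR, DESeq2 and limma voom, with 0 members and 62 genes, or 0.362%, at an unadjusted p under 0.05). The 95% intervals of the 10 members lay between -1.13 and 1.22 in log2, so a fall of more than 2.19-fold or a rise of more than 2.33-fold lies outside every member's interval. The spread behind these intervals was estimated over all 8 libraries, so the more widely spread B libraries enter it. The B intervals rest on the same spread, which the closer A libraries enter, so they may be too narrow. Without the 2 libraries that stood apart, the A differences of the members ran from -0.23 to 0.34. Within the B libraries, 0.0117% of all genes passed, and 0 of 10 members. An unadjusted p under 0.05 was reached by 2 members, a share no higher than the 26.5% of all genes tested. DESeq2 called 1 member there, BIRC6, and limma voom 0. The member median there was -0.48 against 0.01 over all genes tested, and 8 of the 10 estimates were below 0. The member median was -0.16 without the 2 libraries, and 1 member had an unadjusted p under 0.05, beside 12.4% of all genes tested.

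The second question was whether the response differed between the letters. By edgeR 0 of 10 members passed the test of that difference, 2 of them with an unadjusted p under 0.05, and DESeq2 and limma voom called 0. Of all genes 0% passed (0 by edgeR, with 2564, or 15%, at an unadjusted p under 0.05, 43 by DESeq2 and 0 by limma voom). BIRC6 differed most among the members, by 1.55 in log2 (A response minus B response, SE 0.57, interval 0.31 to 2.79, edgeR adjusted p = 0.302). XIAP came next at 0.89 (SE 0.36, interval 0.11 to 1.68, edgeR adjusted p = 0.309). Both intervals lay above 0 before adjustment. Without the 2 libraries BIRC6 gave 0.82 (adjusted p = 0.531) and XIAP 0.83 (adjusted p = 0.504), while BIRC6 gave 0.86 without Control_B alone and 1.99 without Control_BR alone (adjusted p = 0.00585). For CPE the difference was 0.25 (SE 0.59), or 0.16 (SE 0.35) without the 2 libraries. For BCL2 it was 0.50 (SE 0.48), and 0.01 (SE 0.45) without them. The median difference over the members was 0.34, and 0.08 without the 2 libraries.

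**Figure D2:**
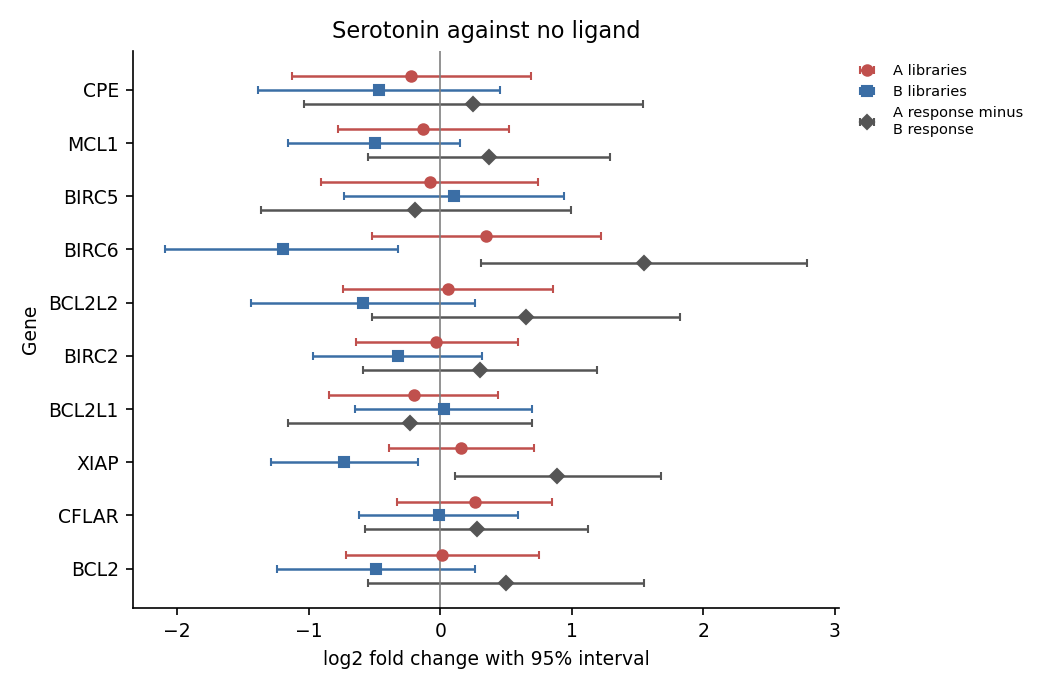
Serotonin against no ligand for each gene, as log2 fold change with its 95% interval, in the A libraries (red circles), the B libraries (blue squares) and as the A response minus the B response (grey diamonds). All 10 A intervals include 0, while the B intervals of BIRC6 and XIAP lie below 0 before adjustment for the number of genes tested.

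The third comparison set the A libraries against the B libraries within a treatment. These are named sets of libraries, which the labels do not tie to cell lines. The comparison reuses the libraries of the serotonin comparisons, so these results are not independent. Every A library was above every B library for CPE, though the lowest A value (139 CPM) was almost met by the highest B value (138 CPM, Control_BR). The log2 difference was 0.68 without ligand (SE 0.42, interval -0.24 to 1.60, edgeR adjusted p = 0.401) and 0.93 with serotonin (SE 0.42, interval 0.01 to 1.85, edgeR adjusted p = 0.201). Without the 2 libraries these were 0.28 and 0.44. CPE without ligand was called when Control_BR was left out (1.3, adjusted p = 0.0355), and with serotonin when Control_B or Control_BR was left out (0.91 and 0.93, adjusted p = 0.0493 and 0.0469).

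BCL2L2 gave the smallest adjusted p of any member. Its 4 A libraries stood at 35.4 to 41.1 CPM and its 4 B libraries at 9.35 to 27.6 CPM. With serotonin it was 2.2-fold higher in A, a log2 difference of 1.14 (SE 0.38, interval 0.31 to 1.96, unadjusted p = 0.0113, edgeR adjusted p = 0.0987). It was called in 6 of 15 alternatives. These were limma voom (1.26, adjusted p = 0.0299), the fit with no filter on low counts (1.14, adjusted p = 0.0214), the fit to the libraries of that comparison alone (1.14, adjusted p = 0.026), the fit without Serotonin_B (2.0, adjusted p = 0.0149), and the fits without Control_B (1.11, adjusted p = 0.0221) and without Control_BR (1.13, adjusted p = 0.0213). All 6 reused the same libraries and kept Serotonin_BR, or compared A with it, at 9.35 CPM against 25.1 CPM in Serotonin_B. The difference was 0.60 without Serotonin_BR alone, and also 0.60 without the 2 libraries. Without ligand the difference was 0.49 (SE 0.38), or 0.53 without the 2 libraries. BCL2L2 shares 19.4% of its exonic bases with the readthrough gene BCL2L2-PABPN1, and read pairs there could not be credited to either gene.

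BIRC2 was also higher in A (27.8 to 38.6 CPM) than in B (15.9 to 24.8 CPM), without overlap. Its log2 difference was 0.45 without ligand (SE 0.29, edgeR adjusted p = 0.425) and 0.75 with serotonin (SE 0.29, interval 0.12 to 1.37, edgeR adjusted p = 0.139), and 0.43 and 0.49 without the 2 libraries. CPE, BCL2L2 and BIRC2 are thus the 3 of 10 members whose A and B ranges did not overlap, beside 17.6% of all genes tested. All 3 were higher in A. Against Control_BR and Serotonin_B alone, 5 of 10 members did not overlap, beside 38.1% of all genes tested, with BCL2 and BIRC5 lower in A.

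BCL2 ran the other way, at 7.77 to 9.48 CPM in A and 9.18 to 19.5 CPM in B. Only Serotonin_BR, at 9.18 CPM, fell among the A values. The log2 difference, A minus B, was -0.86 without ligand (SE 0.34, interval -1.61 to -0.11, edgeR adjusted p = 0.208) and -0.35 with serotonin (SE 0.34, edgeR adjusted p = 0.55). Without the 2 libraries it was -0.59 (adjusted p = 0.263) and -0.58 (adjusted p = 0.266).

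BIRC6 differed by -1.04 without ligand (SE 0.40, interval -1.93 to -0.16, edgeR adjusted p = 0.195), and by -0.38 without Control_B, -0.35 without the 2 libraries and -1.49 without Control_BR (adjusted p = 0.00363). With serotonin BIRC6 differed by 0.51 (SE 0.40), or 0.47 without the 2 libraries. XIAP differed by 0.61 with serotonin (SE 0.25, interval 0.05 to 1.16, edgeR adjusted p = 0.169) and by -0.28 without ligand (SE 0.25), or by 0.53 and -0.30 without the 2 libraries. The log2 differences of MCL1 (-0.21 and 0.16), BIRC5 (0.02 and -0.16), BCL2L1 (0.40 and 0.17) and CFLAR (-0.37 and -0.09) are given without ligand and then with serotonin. Their intervals all included 0. With the 2 libraries left out they were -0.38 and -0.08 (MCL1), -0.44 and -0.35 (BIRC5), 0.10 and 0.03 (BCL2L1), and -0.10 and -0.18 (CFLAR). With either treatment 0 of 10 members passed edgeR's test, while 2.42% of all genes passed without ligand (415 genes) and 5.25% with serotonin (900 genes). At an unadjusted p under 0.05 there were 2 of 10 members without ligand, beside 19.2% of all genes tested, and 4 of 10 with serotonin, beside 24.3%. DESeq2 called 0 members in both treatments, and limma voom called BCL2L2 with serotonin.

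**Figure D3:**
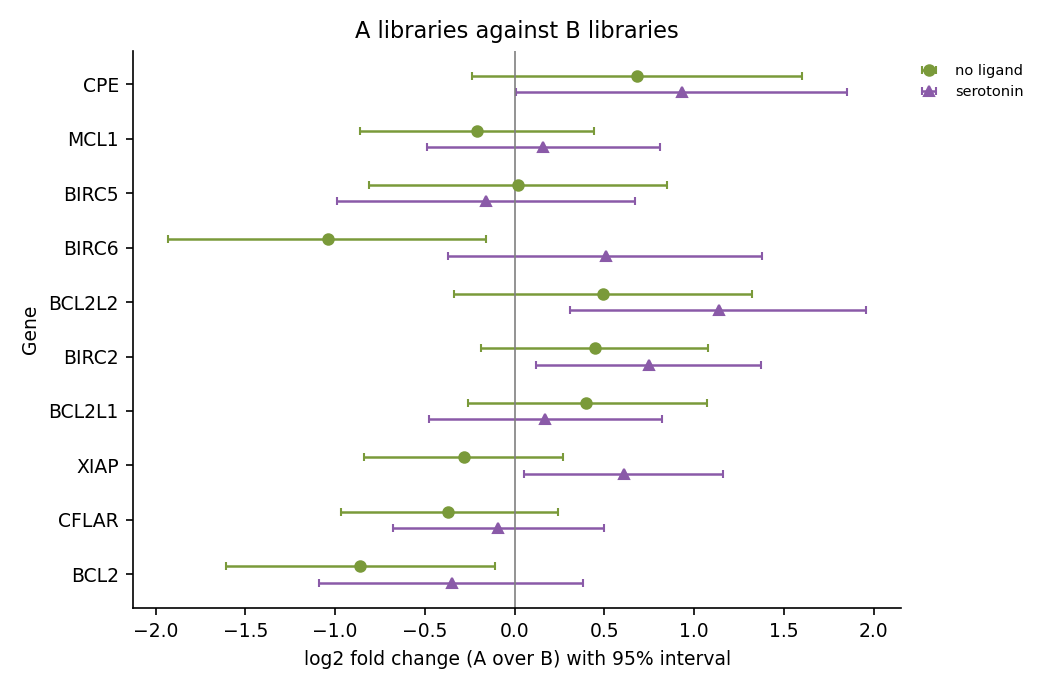
A libraries against B libraries for each gene, as log2 fold change (A over B) with its 95% interval, without ligand (green circles) and with serotonin (purple triangles). With serotonin the intervals of CPE, BCL2L2, BIRC2 and XIAP lie above 0 before adjustment, and without ligand those of BIRC6 and BCL2 lie below 0.

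The make-up of each family within a library does not depend on scaling between libraries. It was looked at after the values were seen and is given as a description. Of the per-length total of BCL2, BCL2L1, BCL2L2 and MCL1, MCL1 took 57.4% to 61.0% in the A libraries and 65.3% to 70.6% in the B libraries. BCL2L2 took 21.0% to 24.2% in A and 9.03% to 17.5% in B, and BCL2 took 1.63% to 1.92% in A and 2.39% to 4.42% in B. These 3 shares did not overlap between the letters, whereas BCL2L1 took 14.3% to 17.1% in A and 9.22% to 19.2% in B. Of the IAP genes, BIRC2 took 15.0% to 19.4% in A and 10.9% to 12.9% in B. BIRC5, BIRC6 and XIAP overlapped, and in Control_B BIRC6 took 51.3% of the IAP total and BIRC5 23.0%. Shares of 1 total move against each other, so they are not separate results. Such shares were not computed for other sets of genes, so how often they separate the letters is not known. In CPM, 17.6% of all genes tested did not overlap between the letters.

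**Figure D4:**
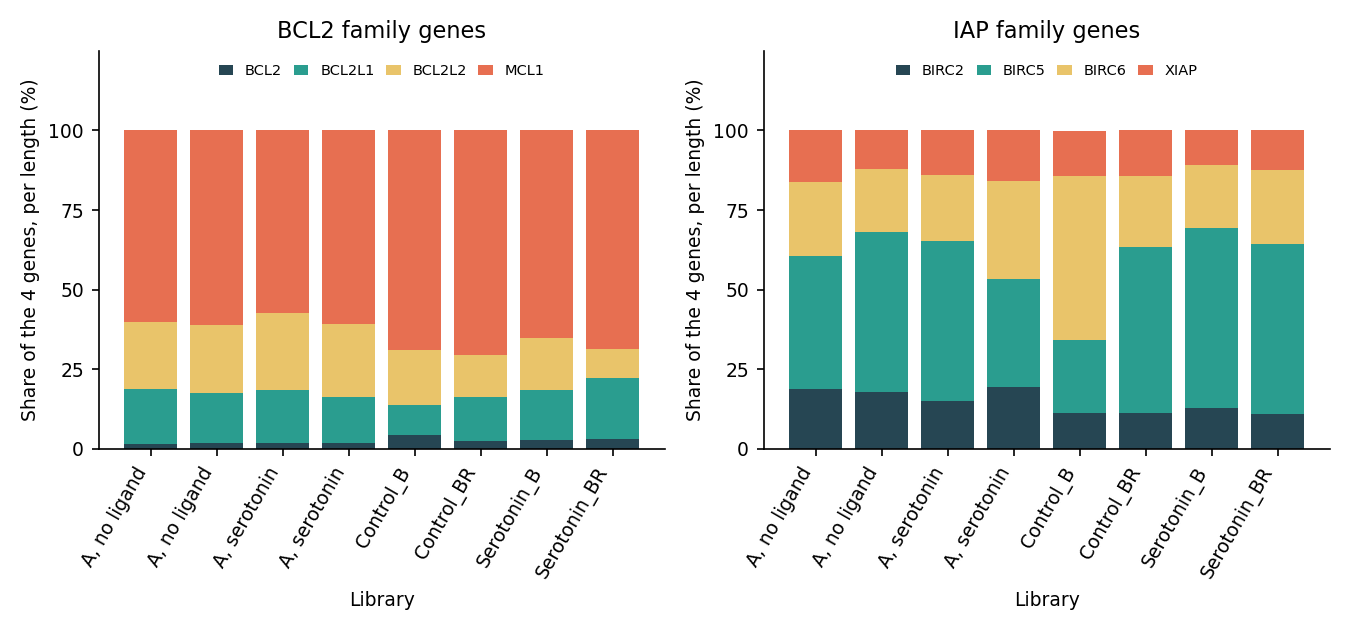
Share of each gene in the per-length total of its family in each library, in percent, for the BCL2 family (left) and the IAP genes (right). The MCL1 share is at most 61.0% in the A libraries and at least 65.3% in the B libraries, and Control_B stands out by its BIRC6 share of 51.3%.

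Other genes of the same pathways were read from lists. Among 7 tested of 10 other anti-apoptotic genes, and among 14 tested of 15 caspases, apoptosome genes and IAP antagonists, edgeR called 0 in all 6 comparisons. DESeq2 and limma voom each called 1 gene of these lists, CYCS (cytochrome c), in A against B with serotonin (-1.13 and edgeR adjusted p = 0.0738, and -1.07 without the 2 libraries). With an unadjusted p under 0.05 these lists held at most 2 and 4 genes in any comparison, the most in the B response, where 26.5% of all genes tested reached it. Of 14 tested of 15 pro-apoptotic BCL2 genes, 1 was called by edgeR without ligand and 2 with serotonin in A against B. Of all genes tested, 2.42% and 5.25% were called in these comparisons. Without ligand DESeq2 called 2, the other being BAD (1.39, edgeR adjusted p = 0.0985), and limma voom 0 (BNIP3L at 0.0841). With serotonin both called 3, the other being BBC3 (-1.27, edgeR adjusted p = 0.0732). BAD and BBC3, BH3-only genes that promote apoptosis, are named after their values were seen. BNIP3L, a mitophagy receptor, was higher in A, by 1.19 in log2 without ligand (edgeR adjusted p = 0.0454) and 1.23 with serotonin (edgeR adjusted p = 0.0267). HRK, which binds and blocks BCL2 and BCL-xL, was lower in A with serotonin, by -1.67 (SE 0.34, edgeR adjusted p = 0.0211), at 6.79 and 4.16 CPM against 17.5 and 17.7 CPM. These calls were lost when any A library or Serotonin_BR was left out, with adjusted p up to 0.41 for BNIP3L and 0.243 for HRK. The BNIP3L call without ligand was also lost without Control_B (0.0773) or Serotonin_B (0.0646), and in the fit to the libraries of that comparison alone (0.165). With Control_B and Serotonin_BR both left out, which leaves 1 B library per treatment, the differences were 1.04 and 1.03 for BNIP3L and -1.66 for HRK.

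In the list around CPE, 11 of 15 peptide processing genes were tested. With serotonin, edgeR called 2 of them lower in A than in B, beside 5.25% of all genes tested called in either direction. These were SCG3, a granule protein, by -1.90 in log2 (SE 0.49, edgeR adjusted p = 0.0476), and CHGA, chromogranin A, by -1.75 (SE 0.45, edgeR adjusted p = 0.0495). CPD, a carboxypeptidase of the trans-Golgi network named after its values were seen, stood higher in A, at 246 and 374 CPM against 185 and 110 (Serotonin_BR) CPM. Its difference was 1.07 (SE 0.36, edgeR adjusted p = 0.105), called by DESeq2 (0.0364) and limma voom (0.0348), and 0.74 without the 2 libraries. DESeq2 also called CPD in the B response (-1.30, edgeR adjusted p = 0.0813). Leaving out any A library, Serotonin_B or Serotonin_BR ended both calls, with adjusted p up to 0.289 for SCG3 and 0.385 for CHGA. Without Serotonin_A the CHGA difference was -2.66. With Control_B and Serotonin_BR both left out, which leaves 1 B library with serotonin, the differences were -2.17 for SCG3 and -1.90 for CHGA.

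Of 16 tested of 17 immediate early genes of ERK and CREB, edgeR called the nuclear receptors NR4A1 and NR4A2 higher with serotonin in the B libraries, and 0 genes in the A libraries. An unadjusted edgeR p under 0.05 was reached by 3 of the 16 in the A response, beside 0.362% of all genes tested. In the B response it was reached by 8, beside 26.5%. NR4A1 stood at 16.1 and 15.5 CPM without ligand and at 87.4 and 104 CPM with serotonin in B, and at 13.5 and 11.5, then 24.2 and 18 CPM in A. The B difference was 2.61 for NR4A1 (SE 0.28) and 2.71 for NR4A2 (SE 0.31), both with an edgeR adjusted p of 0.0205, and NR4A1 over both letters gave 1.68 (SE 0.19, edgeR adjusted p = 0.0454). The difference between the responses did not pass (A minus B, -1.85 for NR4A1 and -2.21 for NR4A2, edgeR adjusted p = 0.302 for both), although DESeq2 called NR4A2. For NR4A2 it was -2.44 without Control_B and Serotonin_BR. Under limma voom the B calls were lost (adjusted p = 0.11), as they were without any A library (at most 0.0645) or without Serotonin_BR (0.255). The call over both letters held only without Control_B or Control_BR among the libraries left out singly. With Control_B and Serotonin_BR both left out, the differences were 2.49 for NR4A1 in B, 2.94 for NR4A2 in B and 1.62 for NR4A1 over both letters. That fit has 1 B library per treatment. DUSP6, the ERK phosphatase, was lower in A by -2.24 without ligand (edgeR adjusted p = 0.00317) and by -2.56 with serotonin (edgeR adjusted p = 0.00114), the former lost without 1 of the A libraries without ligand (0.0983) and in the fit to the libraries of that comparison alone (0.0646). DUSP6 gave -2.16 and -2.59 without the 2 libraries. With serotonin NR4A1 (-2.18) and NR4A2 (-2.93) were also lower in A, and stood at -2.05 and -2.91 without the 2 libraries. So were FOS (-1.85) and FOSB (-1.90), which are named after their values were seen and gave -2.26 and -1.75 without the 2 libraries. In A against B with serotonin 5 of 16 were thus called by edgeR, beside 5.25% of all genes tested. Without 1 of the A serotonin libraries the adjusted p of NR4A1 there was 0.051. DESeq2 also called SIK1 in the B response (3.19, edgeR adjusted p = 0.065) and NR4A2 over both letters (1.60, edgeR adjusted p = 0.0975). In A against B without ligand it called EGR1 (-1.67, edgeR adjusted p = 0.0527) and FOSB (-1.76, edgeR adjusted p = 0.0539). SIK1 and EGR1 are named after their values were seen. In these same libraries no member passed edgeR's test.

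The genes whose profile over the 8 libraries lay nearest to that of CPE were CREG1, PRCP, TMBIM1, PDIA6 and ASAH1. Their root mean square difference from CPE in centred log2 CPM was 0.092 to 0.128. Nearest to BCL2 were MSRB3, SCN9A, PTGR3, LGR5 and AP5S1, at 0.074 to 0.105. Depth, mitochondrial share and letter are shared by all genes of a library, and their part in this likeness was not tested.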

How the data were processed

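Polyadenylated RNA of 8 samples was sequenced with stranded libraries, per the labels' protocols. The authors deposited raw counts of read pairs per gene, made with featureCounts 2.0.1 (reverse-stranded) on GENCODE release 28 and hg38, per the file headers, which also give the gene length in bases (a deposited value of another kind, used here for RPKM). The submitters' processing notes also name cutadapt 3.4 and STAR 2.7.8a. The command in the header has no option to count pairs on more than 1 gene or to skip marked duplicates. The treatment word in a column's name gave its group, and letters were kept as letters. Counts were tested with edgeR 4.0.16 (quasi-likelihood F test, TMM, genes kept by filterByExpr, 1 mean per letter and treatment over all 8 libraries, 4 residual degrees of freedom, Benjamini-Hochberg over 17144 genes) in R 4.3.3, called at an adjusted p under 0.05. CPM and RPKM are on the TMM scale, and log2 CPM used a prior of 0.5. DESeq2 1.42.0, RLE factors, no filter, the comparison's own columns, a block and leaving out each library were alternatives. Afterwards limma 3.58.1 voom with sample weights and the fit without 2 libraries were added, after seeing the data. All members are named, with called list genes (in A against B the 3 largest per list) and the 5 genes most like CPE or BCL2. Members and lists were chosen with earlier results of these data known. The fits were tested on simulated data.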

Additional observations from a re-analysis of the deposited data

Results flagged for a closer look

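Within the 4 libraries of a treatment, the gap between an extreme library and its nearest neighbour was divided by the whole range, for the 10 members and 3 measures of the libraries. Of 26 such ratios 5 reached the 95% critical value for 4 samples, which about 1 of 20 groups would pass if all 4 came from 1 normal distribution. Each group here mixes A and B libraries, and the ratios share the same libraries. The 5 are therefore pointers for a closer look and not a count to set against that rate.

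Among the libraries without ligand, Control_B was the extreme in 4 of these. BCL2L1 there stood at 11.5 CPM against 21 to 23 CPM in the others, a ratio of 0.869, on only 20 read pairs. The mitochondrial share gave 0.973, the library total 0.858 and the number of genes detected 0.84. These measures belong to the same library, and whether its depth or mitochondrial share bears on its BCL2L1 value was not tested.

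Among the serotonin libraries, BIRC6 in 1 of the A libraries stood apart with a ratio of 0.8295, just past the critical value, at 240 CPM against 134 to 148 CPM. Among the libraries without ligand BIRC6 was highest in Control_B (440 CPM), where the ratio was 0.78 and below the critical value. The A library with the high BIRC6 value held 5439082 read pairs, fewer than any library but Control_B, with 24.6% mitochondrial.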

How the results depend on the processing

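No member was called in the fit reported above. Over 15 alternatives, 866 of 880 member values stayed uncalled, 14 were called (all given beside the results), and 49 changed sign, 0 of them called. The cause of these shifts was not tested. Depth limits BCL2L1, BCL2, BIRC2 and BCL2L2 most in Control_B, at 20, 34, 43 and 48 read pairs. The alternative with only the comparison's own libraries needs all 8 for the response over both letters and for the difference between responses, and was not run there.

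Numbers of genes called moved more than member values. In the order both letters, B response, difference of responses, A against B without ligand and A against B with serotonin, the reported fit called 1, 2, 0, 415 and 900. DESeq2 called 7, 1470, 43, 827 and 1515. With no filter on low counts the numbers were 227, 1830, 570, 1117 and 1985. Without Control_B and Serotonin_BR they were 7, 84, 7, 1542 and 1850. With only the comparison's own libraries the B response gave 9 and the letter comparisons 15 and 2312. Under limma voom the B response gave 0 and the letter comparison with serotonin 1694. The A response gave 0 under all 15 alternatives.

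Leaving out 1 library at a time gave 0 to 1650 over both letters, 0 to 4846 in B, 0 to 3482 for the difference, 60 to 3693 for the letters without ligand and 83 to 3347 with serotonin. The highest numbers all came without Control_BR. Without Control_B the B response gave 261 and without Serotonin_B 1053. Without 1 of the A serotonin libraries the letter comparison with serotonin gave 92, and without Serotonin_BR 83. Without either A library of no ligand, the comparison without ligand gave 63 and 60.

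A replicate block on the trailing R of the names gave 0 over both letters, 2 in B, 0 for the difference, 268 for the letters without ligand and 480 with serotonin. It called 0 members. Of the list genes named above, the block left uncalled NR4A1 over both letters (adjusted p = 0.135), BNIP3L without ligand (0.0947) and with serotonin (0.0588), SCG3 (0.0782) and CHGA (0.0783). Whether R pairs libraries is not stated. Deviations of R libraries correlated between letter and treatment sets from -0.68 to 0.17, and what R marks was not tested.

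Signs that changed were as follows. With no filter, BCL2 in A was -0.01 and CFLAR in B 0.03. Without Control_B and Serotonin_BR, over both letters BCL2L2 was 0.02 and BIRC5 -0.13. In B, BCL2L1 was -0.14, BIRC5 -0.17 and CFLAR 0.34. For the difference of responses, BIRC5 was 0.08 and CFLAR -0.08. For the letters, BIRC5 without ligand was -0.44 and MCL1 with serotonin -0.08. Leaving out 1 library at a time, the ranges that crossed 0 were as follows. Over both letters they were -0.23 to 0.21 (BCL2L1), -0.2 to 0.39 (BIRC5) and -0.01 to 0.27 (CFLAR). In A they were -0.13 to 0.15 (BCL2), -0.06 to 0.14 (BCL2L2), -0.28 to 0.17 (BIRC2), -0.36 to 0.18 (BIRC5), -0.05 to 0.64 (BIRC6) and -0.33 to 0.02 (MCL1). In B they were -0.26 to 0.64 (BCL2L1), -0.34 to 0.87 (BIRC5), -0.26 to 0.27 (CFLAR) and -1.2 to 0.14 (CPE). For the difference they were -0.85 to 0.08 (BCL2L1), -0.96 to 0.28 (BIRC5) and -0.37 to 1.0 (CPE). For the letters they were -0.47 to 0.8 (BIRC5) without ligand, and -0.43 to 0.05 (BIRC5), -0.2 to 0.01 (CFLAR) and -0.08 to 0.41 (MCL1) with serotonin.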
